A study of Mus musculus with 2 samples.

Results

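Dppa2, Dppa3, Dppa4, Dppa5a, L1td1, Lin28a, Utf1, Tdgf1 and Tcl1 are genes whose transcripts mark undifferentiated mouse embryonic stem cells, and their levels were followed in cells that overexpress ID2. They are 9 of the 14398 rows of the deposited expression table, taken by gene symbol, and each symbol occurred in 1 row. The genes were selected on the values of these same 2 libraries as well as on their known roles, since results of the data were at hand when the set was made. The values below are therefore a description.

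The study used the mouse embryonic stem cell line 46C, in which GFP is placed at Sox1, a gene of early neural cells. Both cultures were at passages 21 to 24 and grew on gelatin in medium with serum and leukemia inhibitory factor. The control culture was transfected with the empty vector (PB), the other with the vector for ID2 (PB-ID2), and each gave 1 RNA library. Whether a culture was a clone or a pool, and what drives the ID2 transcript, is not given in the sources used here. ID2 is a helix-loop-helix protein that lacks a DNA-binding region and holds E proteins off their DNA sites. A gene is called higher or lower by its value in the ID2 library relative to the control. With 1 library per group there is no spread between replicates, so no difference below was tested.

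These genes share a pattern of expression more than a mechanism. DPPA2 and DPPA4 are paired proteins with a SAP domain that bind chromatin, promoters of developmental and germline genes among them. UTF1 is a chromatin protein found at poised promoters, and DPPA3 (Stella) protects the maternal genome from loss of methylation and impairs UHRF1. L1TD1 is an RNA-binding protein that descends from the first open reading frame of a LINE-1 retrotransposon, LIN28A is an RNA-binding protein that blocks the maturation of let-7 microRNAs, and DPPA5A has a KH-type RNA-binding fold. TDGF1 (Cripto) is the membrane-anchored co-receptor of Nodal, and TCL1 is a cofactor that raises the activity of AKT.

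Promoter sequences were available for 5 of the 9 genes (L1td1, Lin28a, Utf1, Tdgf1 and Tcl1) from RefSeq, build GRCm38.p6. The pair below is shown because L1td1 had the largest ratio of the 9 genes and Tdgf1 an equal level in both libraries, while both promoters hold the same box. Each run ends before the outermost annotated start, and capitals mark matches to GGGNGTGG, a form of the box bound by Krüppel-like factors, and to the E-box CANNTG, the site of E proteins. The first lies at chr4:98726504-98726733 (+ strand) and the second at chr9:110946159-110946408 (- strand).
L1td1: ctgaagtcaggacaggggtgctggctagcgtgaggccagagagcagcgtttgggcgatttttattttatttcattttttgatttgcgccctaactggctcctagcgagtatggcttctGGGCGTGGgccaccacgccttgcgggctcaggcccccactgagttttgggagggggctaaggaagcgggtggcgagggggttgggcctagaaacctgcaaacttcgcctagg
Tdgf1: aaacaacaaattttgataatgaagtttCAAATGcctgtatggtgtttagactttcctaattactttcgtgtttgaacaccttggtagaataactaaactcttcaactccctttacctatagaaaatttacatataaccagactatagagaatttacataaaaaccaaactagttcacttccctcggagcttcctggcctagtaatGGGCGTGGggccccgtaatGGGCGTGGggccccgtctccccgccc

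Both strands of the 250 bases before each gene's start in the RefSeq promoter table were searched, and distances count from that start. The printed run of L1td1 ends short of it, at a start annotated farther upstream, while that of Tdgf1 reaches it. GGGNGTGG was found 1 time in L1td1, 132 bases before the start, and 2 times in Tdgf1, 45 and 26 bases before it. The Tdgf1 matches lie in 2 copies of the same 19 bases, gtaatGGGCGTGGggcccc. Of 32851 promoters in the table, 15.9% held the box at least 1 time and 2.81% at least 2 times. CANNTG was found 1 time in Tdgf1 (CAAATG, 223 bases before the start) and 1 time in Tcl1 (CACCTG, 21 bases before the start, the other strand of CAGGTG, which is itself a form of CANNTG), beside 66.2% of all promoters with at least 1 match. CAGGTG alone was held by 17.2%. Only 194 of the 250 bases of Tcl1 lie before its outermost annotated start. These held 0 CANNTG, so the Tcl1 match lies past that start. Of the 250 bases, 183 of Utf1 and 0 of Lin28a lie before every annotated start. The 250 bases of L1td1, Lin28a and Utf1 held no CANNTG, and none of the 5 held the octamer ATGCAAAT (1.6% of all promoters) or the nuclear receptor half-site AAGGTCA (4.08%). None of the matches overlapped a match to another motif, apart from CAGGTG within CANNTG. These matches describe letters only.

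Values are the authors' normalized values. The labels were checked first on Id2, which stood at 324 (control) and 26225 (ID2), 80.6-fold apart in the labelled direction. The 8 markers fixed for embryonic stem cells (Pou5f1, Sox2, Nanog, Zfp42, Esrrb, Klf4, Sall4 and Fgf4) were all in the table, and the lowest of their values was 5760, for Sall4 in the control. Sorted, the values of both libraries followed 1 common list of whole numbers, so a gene's value is fixed by its rank in its library, and sequencing depth is unknown. Log2 ratios were taken after adding 1 to each value. Of the 9 genes, 8 had a mean of at least 50, the floor used for counts, and Dppa3 lay under it.

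L1td1 and Dppa2 were at least 2-fold higher in the ID2 library, and the other 6 genes above the floor lay within 0.5 of 0 on the log2 scale. Of all 12679 genes with a mean this high, 2.53% passed 2-fold upward and 1.86% passed it downward, and 81.1% lay within 0.5 of 0. The rule of the set used this contrast, so nothing is read from the 2 of 8. In whole numbers of the common list 5 of the 8 genes were higher, 2 lower and 1 equal, beside 47.2% higher and 51.5% lower of all genes above the floor. The median log2 ratio of the 8 genes was 0.22 and that of all genes above the floor 0.00.

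**Figure D1:**
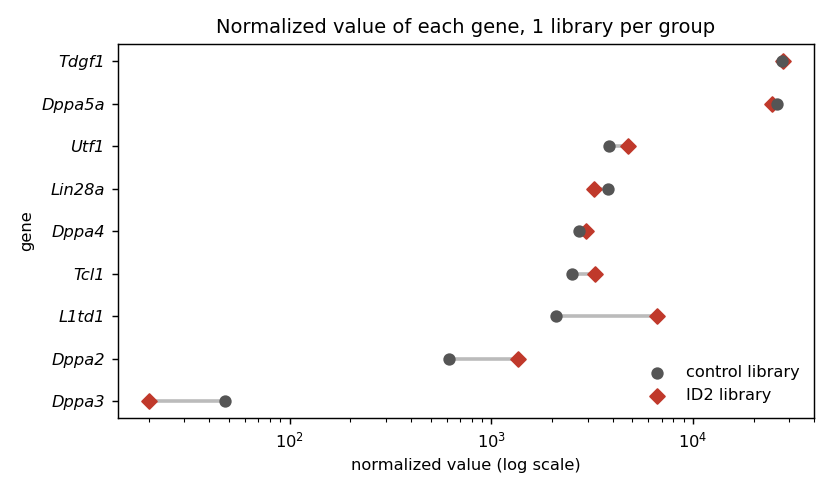
Normalized value of each gene (log scale) in the control library (grey circle) and the ID2 library (red diamond), 1 library per group, with no error bars because there are no replicates. L1td1 (2095 and 6636) and Dppa2 (615 and 1355) have their red points far to the right of the grey ones, and Dppa3 (47.8 and 20.1) has it to the left.

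Of the chromatin proteins, Dppa2 stood at 615 without and at 1355 with ID2 overexpression. The ID2 value was 2.20-fold that of the control (log2 ratio 1.14), and the gene moved from rank 7131 to rank 4376 of 14398. Dppa4, whose protein forms a complex with DPPA2, stood at 2710 and 2954, a log2 ratio of 0.12 and a difference of 9.02%. The log2 ratios of the pair differed by 1.01, although the genes lie side by side on chromosome 16 with no other gene of the table between them. Per kb of transcript, Dppa4 had 7.30 times the value of Dppa2 in the control library and 3.60 times in the ID2 library. As values are fixed by rank on the common list, these are no measured ratios of transcript number.

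Utf1 stood at 3823 (control) and 4775 (ID2), a log2 ratio of 0.32 and a value 24.9% higher. Its ranks were 1460 and 1109. Dppa3 was the one gene of the set near the bottom of the table, at 47.8 in control cells and 20.1 in ID2 cells (log2 ratio -1.21, or 2.31-fold lower). At this level ratios are coarse: the values are 48 and 20 on the common list of whole numbers. Without a floor, 3.26% of all 14398 genes passed 2-fold downward and 3.83% upward.

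Of the RNA-binding proteins, L1td1 stood at 2095 in control cells and at 6636 in ID2 cells. This was 3.17-fold (log2 ratio 1.66), and the gene moved from rank 2888 to rank 671. At least 3-fold higher were 0.607% of genes above the floor, and L1td1 was the one gene of the set among them. Lin28a stood at 3770 and 3226, a log2 ratio of -0.22 (0.856 times the control value), with ranks 1485 and 1814. The ratio of L1td1 lay 1.89 above that of Lin28a on the log2 scale. Dppa5a stood at 25963 and 24534 (log2 ratio -0.08), at ranks 87 and 97.

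Of the signaling proteins, Tdgf1 stood at 27618 (control) and 27887 (ID2). Both values are 27752 on the common list, and the gene held rank 80 in both libraries. Its log2 ratio of 0.01 is the offset between the scales of the libraries, which every gene of equal rank shows. Tcl1 stood at 2526 and 3249 (log2 ratio 0.36), 28.6% higher, at ranks 2337 and 1798.

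The authors' deposited table gives 26 of 14398 genes an adjusted p under 0.05 (0.181%), and L1td1 is the one gene of the set among them, with an adjusted p of 1.51e-05 and the fifth lowest p of the table (5.25e-09). For Dppa2 the authors' deposited table gives a p of 0.00146 and an adjusted p of 0.26, at place 81 by p. For the other 7 genes the adjusted p in the authors' deposited table is 1.0, with unadjusted values from 0.211 (Tcl1) to 0.956 (Tdgf1). These p-values come from 1 library per group and rest on no spread between replicates.

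Because ratios spread more among low genes, each gene was set beside the 500 genes nearest to it in mean value. Near L1td1 (means of 3737 to 5101), 90% of ratios lay between -0.33 and 0.41, 1 of the 500 was at least 2-fold higher, and 0 had a ratio as high as L1td1. Near Dppa2 (means of 920 to 1054), 90% lay between -0.46 and 0.55, 5 of the 500 were at least 2-fold higher, and 4 had a ratio as high as Dppa2. Near Dppa3 (means of 30 to 38.1), 90% lay between -1.23 and 1.42, and 31 of the 500 had a ratio as low. The 2.31-fold difference of Dppa3 lay just inside the band of its level, and those of L1td1 and Dppa2 lay outside theirs. The genes were selected on these same values, so nothing further is read from these places.

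The remaining genes lay inside the 5th to 95th percentile band of their own level. Utf1 lay above 91.2% and Tcl1 above 88.2% of the 500 nearest genes, Dppa4 above 69.8%, Tdgf1 above 53.8%, Dppa5a above 31.8% and Lin28a above 12.4%. For Tdgf1 and Dppa5a the 500 nearest reached over a wide range, from means of 8006 to 91503 and of 7901 to 78975, since few genes are as high. These positions place a gene among other genes of the same 2 libraries and are not p-values.

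Levels of different genes were also compared after division by transcript length, with the longest coding transcript of each gene in GENCODE M21. The ranks above were taken on values not divided by length. Dppa5a, with a transcript of 619 bases, had the highest value per kb of the set in both libraries, at 41943 and 39634. Tdgf1 followed at 14295 and 14434 per kb, and Utf1 at 3116 and 3892. At the bottom stood Dppa2, at 251 and 554 per kb, and Dppa3, at 57.3 and 24.1. These 5 genes kept their places in the order in both libraries.

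The middle of the order changed. In the control library Dppa4 (1832 per kb), Tcl1 (1807), Lin28a (1076) and L1td1 (712) followed each other in places 4 to 7. In the ID2 library the order was Tcl1 (2324), L1td1 (2256), Dppa4 (1997) and Lin28a (920). Tcl1 and L1td1 in the ID2 library stood so close that another transcript length reorders them. Dppa4 and Tcl1 in the control library were also close, but kept their order with the length of all annotated exons (1630.5 and 1369.0 per kb). With the length of all annotated exons, L1td1 (2091 per kb) stood above Dppa4 (1778) and Tcl1 (1761) in the ID2 library. L1td1 stood above Lin28a in the ID2 library and under it in the control library by either length.

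**Figure D2:**
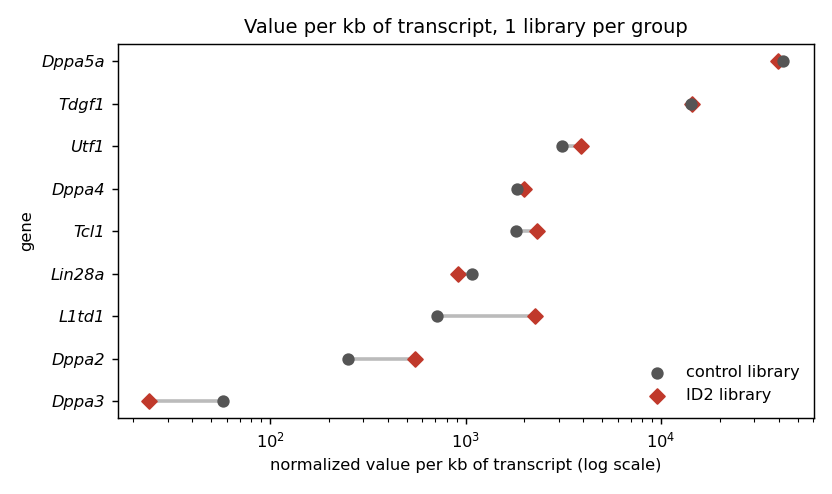
Normalized value per kb of the longest coding transcript (log scale) of each gene in the control (grey circle) and ID2 (red diamond) library, ordered by the control value, with no error bars because each group is 1 library. Dppa5a (41943 and 39634) is the highest and Dppa3 (57.3 and 24.1) the lowest in both, and L1td1 moves from 712 to 2256.

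Several of these genes have near-identical copies elsewhere in the genome, with which reads may be shared. Transcripts of other genes in GENCODE M21 were counted that match a member over at least 150 bases at 90% identity or more. Dppa5a had 9 such genes and Dppa2 had 6, among them Gm9788 with 99.3% identity over 906 bases. Dppa3, Dppa4 and Tdgf1 had 2 each, L1td1 had 1 (Gm48515, 91.7% over 519 bases), and Lin28a, Utf1 and Tcl1 had 0. How the authors' counting treated reads that match several places is not given in the sources used here, so the values of Dppa2, Dppa3, Dppa4, Dppa5a, Tdgf1 and L1td1 are uncertain to that extent.

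Of these copies 3 were in the table. Tdgf1-ps1, with 98.8% identity to Tdgf1 over 512 bases, stood at 1860 and 1750 (log2 ratio -0.09). Gm14058, with 99.4% identity to Dppa4 over 532 bases, stood at 33.8 and 39.2. Pigp, of which one annotated transcript matches Dppa5a at 95.9% over 417 bases, stood at 254 and 255. None of the 6 copies of Dppa2 was in the table under its GENCODE name, and neither was that of L1td1.

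The exon structure of the genes was also compared, since ratios differed with it across the table. Genes with at least 80% of their transcript in 1 exon were at least 2-fold higher in 117 of 1726 cases (6.78%), against 151 of 9782 (1.54%) of the other coding genes. L1td1, with 52.2% of its transcript in its largest exon, and Dppa2, with 44.6%, are not of that class. Among genes with 40 to 80% of the transcript in 1 exon, as in both of these, 2.02% were at least 2-fold higher. Among genes with under 40% in 1 exon, 33 of 3927 were (0.84%), so the class of these genes lies between the others. The part of exon structure in the ratios of L1td1 and Dppa2 was not tested. Lin28a, with 85.4% in 1 exon, is of the first class and was lower. The kit does not mark the strand, so reads of a gene and of one that overlaps it on the other strand cannot be told apart.

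The 2 genes of the table nearest to each member on each side were listed, in the order of the RefSeq annotation. Coding genes outside the table were passed over, such as 6 between Dppa5a and Gsta4 and 5 between Tcl1 and Syne3. Of 27 such neighbours with a mean of at least 50, 1 passed 2-fold, downward (Syne3, beyond Tcl1, 277 and 100), and 0 passed it upward, with a median log2 ratio of 0.10. Of all genes above the floor 1.86% passed 2-fold downward and 2.53% upward, so nothing is read from the counts of 27 genes. Next to Dppa2 on the side away from Dppa4, the germline gene Morc1 stood at 1059 and 900 (-0.23). Dzip3, the second listed gene on that side, was higher (661 and 1059, 0.68), with 4 coding genes outside the table passed over. Beside L1td1, Inadl stood at 237 and 158 (-0.58) and Kank4 at 719 and 1124 (0.65). Dppa3 lies beside Gdf3, a TGF-beta family ligand of pluripotent cells, which was higher (906 and 1258, 0.47) where Dppa3 was lower. Ooep, a KH-domain relative next to Dppa5a, stood at 1846 and 2066 (0.16).

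**Figure D3:**
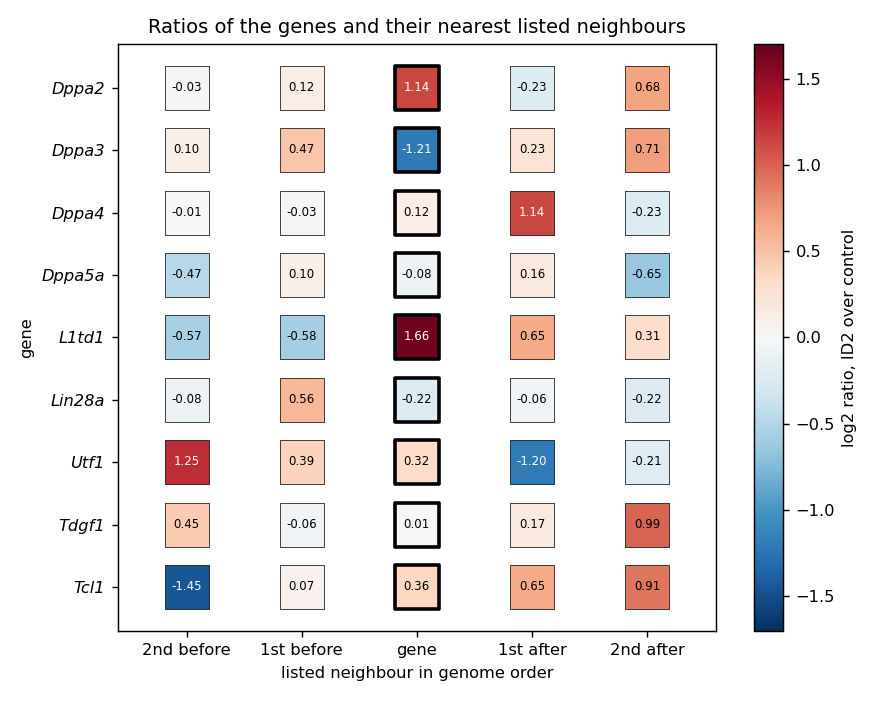
Log2 ratio (ID2 over control) of each of the 9 genes (thick frame) and of the 2 nearest genes of the table on each side in genome order, as colour and number. L1td1 (1.66) stands between neighbours at -0.58 and 0.65, and Dppa2 (1.14) between Dppa4 (0.12) and Morc1 (-0.23); some neighbours are under the floor.

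Relatives of the 9 genes were mostly outside the table. Of 10 relatives, 7 were not in the table: Cfc1, Dppa1 and the 5 Tcl1b genes. Lin28b, the other LIN28 protein, stood at 440 and 626 (log2 ratio 0.51) where Lin28a stood at -0.22. Khdc3, an oocyte protein related to DPPA5A, lay under the floor as Dppa3 did, and like it was lower (61.7 and 21.1, -1.50).

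Genes that act with LIN28A in the let-7 pathway were all in the table. Of 19 genes of let-7 processing and let-7 targets, 13 were higher and 6 lower, with a median log2 ratio of 0.14. Mycn, a MYC family factor and let-7 target, was the one of the 19 at least 2-fold higher (1428 and 3027, 1.08). Hmga2, a chromatin protein and let-7 target, stood at 355 and 580 (0.71). None of the 19 was at least 2-fold lower.

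Genes of Nodal signaling, in which TDGF1 is the co-receptor, showed 9 higher and 6 lower of 15 above the floor, with a median of 0.12 and none 2-fold apart. The feedback inhibitors Smad7 (1315 and 2380, 0.86) and Lefty2 (103 and 184, 0.82) had the largest ratios. Nodal itself stood at 1302 and 1654 (0.35). Of the PI3K and AKT genes, with which TCL1 acts, 7 were higher and 9 lower of 16, with a median of 0.00. Rictor, a subunit of the mTOR complex that phosphorylates AKT, stood at 2641 and 1996 (-0.40), and Eras, a RAS protein of embryonic stem cells, at 697 and 870 (0.32).

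A list of germline and cleavage-stage genes, classes that DPPA2 and DPPA4 are known for, had 12 genes above the floor, and all 12 were germline genes. Of these, 11 were lower and 1 (Sycp1) higher, with a median of -0.69 and none 2-fold apart, beside 51.5% of all genes above the floor that were lower. Taf7l, a germ cell factor of general transcription, stood at 165 and 82.4 (-0.99), and the piRNA factor Mael at 579 and 312 (-0.89). Of the 25 listed, 8 were not in the table and 5 lay under the floor. The cleavage-stage genes in the table were 4 Zscan4 genes, all under the floor, with log2 ratios from 0.48 (Zscan4c, 35.8 and 50.2) to 0.84 (Zscan4f, 20.9 and 38.2).

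DNA methylation enzymes and their partners, with which DPPA3 is tied through UHRF1, were higher in 6 and lower in 5 of 11 cases (median 0.20). Uhrf1 stood at 13887 and 16273 (0.23). Zfp57, which protects imprints, had the largest ratio (13510 and 23489, 0.80), followed by Tet3 (349 and 532, 0.60). Of 11 genes of Polycomb repressive complex 2, which shares poised promoters with UTF1, 5 were higher and 6 lower (median -0.02). Ezh1, a catalytic subunit, stood at 3477 and 1791 (-0.96), and Mtf2 at 7262 and 10526 (0.54).

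The pluripotency transcription factors were higher in 16 and lower in 3 of 19 cases, beside 47.2% higher of all genes above the floor. Their median was 0.23, close to the 0.22 of the 8 genes, and none was 2-fold apart. Foxd3 (428 and 828, 0.95) and Nr0b1 (931 and 1694, 0.86) had the largest ratios, while Pou5f1 (0.09), Nanog (0.23) and Sox2 (0.37) had smaller ones. Other markers of undifferentiated cells were evenly split, 9 higher and 9 lower of 18 (median 0.07), with Gbx2 (331 and 560, 0.75) and Epcam (1730 and 1144, -0.60) farthest from 0.

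Markers of other cells were also counted. Of 13 fibroblast or feeder markers 9 were in the table, and their values summed to 2625 in control and 1846 in ID2 cells. The 6 with a mean of at least 50 split evenly, 3 higher and 3 lower (median log2 ratio -0.18). Loxl1 (191 and 262, 0.45), Fbn1 (129 and 142, 0.13) and Pdgfra (84.6 and 86.4, 0.03) were higher, and Pdgfrb was lower (768 and 589, -0.38). Col1a1 was at least 2-fold lower (339 and 139, -1.28), Thy1 stood at 966 and 608 (-0.67), and Col1a2 (39.8 and 7.03), Tnc (28.9 and 7.03) and Acta2 (77.6 and 6.03) lay under the floor and were lower. Col3a1, Dcn, Lum and Postn were not in the table. Of 14 markers of differentiated derivatives 7 were in the table, with sums of 1528 and 1620. The 5 with a mean of at least 50 were higher in 2 cases and lower in 3 (median log2 ratio -0.41). Sox1, the reporter locus, was the one at least 2-fold higher (386 and 782, 1.02), and Gata4 had the lowest ratio (146 and 76.4, -0.93). In bulk RNA, fewer cells of a type and less RNA per cell cannot be told apart, and the part of such cells in the ratios of the 9 genes was not tested.

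**Figure D4:**
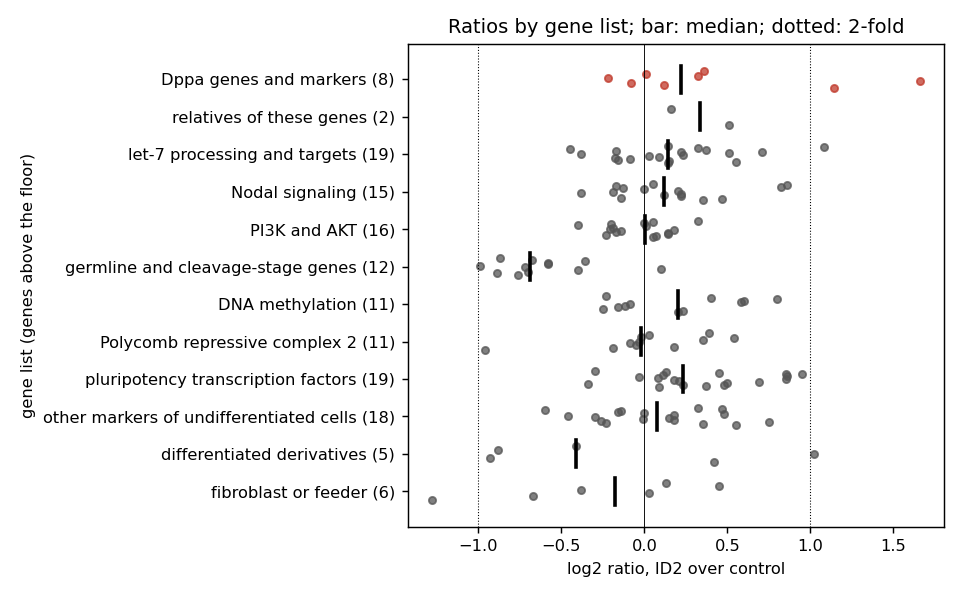
Log2 ratio (ID2 over control) of each gene above the floor, by gene list, with the number of genes in parentheses, black bars for medians and dotted lines at 2-fold. The red points of L1td1 (1.66) and Dppa2 (1.14) lie right of the dotted line, and Mycn (1.08) and Sox1 (1.02) are the only other points there.

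For each gene the named genes nearest in mean value and ratio were found, with the distance in the plane of log2 mean and log2 ratio as the measure, over 2 libraries. L1td1 had no close match: the nearest was Inhbb (2996 and 6606), an activin subunit, at a distance of 0.541, and then Pml (3252 and 6084) at 0.766. Nearest to Dppa2 were Irak3 (609 and 1385, distance 0.0491) and Cstf3 (602 and 1282, distance 0.0802). Dppa3 shared its values of 47.8 and 20.1 exactly with Bgn and Jsrp1. For the remaining genes the nearest match lay within 0.0263 (Lin28a and Aplp1), with Uhrf1bp1 for Dppa4, Hnrnpa1 for Dppa5a, Shc1 for Utf1, Ctnna1 for Tdgf1 and Fndc3a for Tcl1. With a single ratio per gene, such a match says only that the pairs of values are alike.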

How the data were processed

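RNA sequencing of 2 libraries, 1 per group, was used as deposited. Per the labels' protocols, Trizol RNA went into TruSeq v2 libraries. STAR, DESeq and the build mm9 are named in the submitters' processing notes; no version, annotation or counter is named there. The authors deposited a normalized signal per gene and library (the signal values above), a ratio (fold) with its log2, and a p-value with its adjusted p-value. The deposited signal values were whole multiples, within 0.01, of a step of 0.995 (control) or 1.00 (ID2), with 0 ranks that differ between the sorted libraries; the total of 25224015 steps is common to both and is no depth. The lowest mean in the table was 14.0.

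Computed here were log2((ID2 + 1)/(control + 1)), counts past 2-fold with a floor of 50 on the mean, positions among 500 genes of like level, values per kb, and matches by blastn 2.17.0 (Python 3.11.15, pandas 2.3.3). The ratio and position code was tested on simulated data. Members, lists and rules were chosen with earlier results of these data known; the exon classes, sequence copies, motifs and neighbours were added after the files were seen. Named from each list were the 2 genes above the floor with the largest absolute ratio, any gene past 2-fold, and Pou5f1, Sox2 and Nanog; Nodal, Uhrf1, Lin28b, Ooep, Sall4, Sycp1, Zscan4c, Zscan4f, Loxl1, Fbn1, Pdgfra, Pdgfrb and the named neighbours and copies were chosen after their values were seen. Sequences and gene order come from GRCm38 and were used by name, without joining coordinates to mm9.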

Additional observations from a re-analysis of the deposited data

How the results depend on the processing

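With 1 library per group no library could be left out, and no paired analysis was possible because each group had 1 library. Of 80 recomputed values 76 stayed within the tolerances (0.1 for a log2 ratio, 5 points for a position, 1.5 times for a count), 4 moved and 0 reversed. Without a floor, which adds Dppa3, the median log2 ratio of the set was 0.12 and 1 gene was at least 2-fold lower. With a 3-fold threshold 1 gene was higher, L1td1. With a pseudocount of 10 the ratio of Dppa3 was -0.94. The ratios of the other 8 genes moved by at most 0.02 under pseudocounts of 0.1 and 10, a median ratio set to 1, the authors' log2 column and, chosen after seeing the data, whole steps. Positions were recomputed with 200 and 1000 genes. The depth of both libraries is unknown, so no counting error can be given.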
